A study of Mus musculus with 28 samples.

Results

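The genes described here encode potassium channels, the membrane proteins through which potassium ions leave or enter a cell. They were chosen by name alone, as protein-coding genes with a Kcn symbol of the families Kcna to Kcnv, and 89 such genes stood among the 45706 rows of the expression tables. RNA sequencing had been carried out on mIMCD-3, a line of epithelial cells that originated in the inner medullary collecting duct of a mouse carrying SV40 early region genes. The 28 libraries comprised 4 of polyclonal wild-type (WT) cells, 4 of the monoclonal WT line WT5, which grew from 1 sorted cell, and 4 of each of 5 subclones, each grown from a single cell sorted from WT5. No group had been treated or edited, and all cells had been kept in the same medium and harvested 4 days after full confluency. The comparisons ask how channel gene transcripts differ between 1 clone and the polyclonal line, and between that clone and its subclones. WT5 and each subclone stand for 1 clone each, so a difference between them is a difference between clones and not between kinds of cloning.

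Potassium channels set the resting voltage of a cell and let potassium recycle across the membrane beside the sodium pump. The 2-pore-domain channels (Kcnk) leak potassium at rest, the inward rectifiers (Kcnj) pass potassium best near the resting voltage, the voltage-gated Kv channels (Kcna to Kcnd, Kcnh, Kcnq) open on depolarization, and the Kcnm, Kcnn, Kcnt and Kcnu genes encode channels gated by calcium, sodium or pH and their accessory subunits. Kcnab and Kcne genes encode small subunits that join Kv channels, and the Kcnf, Kcng, Kcns and Kcnv proteins form channels only together with other Kv subunits. In the collecting duct, potassium leaves the cell across the apical membrane through Kcnj1 (ROMK) and the calcium-activated channel Kcnma1, and across the basolateral membrane through channels that include Kcnj10 together with Kcnj16.

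The inward rectifiers called as different between WT5 and polyclonal cells were Kcnj10, Kcnj4 and Kcnj2. Their promoter windows are shown here because the first 2 genes were higher in WT5 and the last was lower. Each window is 300 bases of RefSeq sequence around the gene's start (build GRCm38.p6, read in the direction of transcription), with every CG dinucleotide, the site of DNA methylation in mammals, in capitals. The windows lie at chr1:172340960-172341259 on the plus strand (Kcnj10), chr15:79505192-79505491 on the minus strand (Kcnj4) and chr11:111065914-111066213 on the plus strand (Kcnj2).
Kcnj10: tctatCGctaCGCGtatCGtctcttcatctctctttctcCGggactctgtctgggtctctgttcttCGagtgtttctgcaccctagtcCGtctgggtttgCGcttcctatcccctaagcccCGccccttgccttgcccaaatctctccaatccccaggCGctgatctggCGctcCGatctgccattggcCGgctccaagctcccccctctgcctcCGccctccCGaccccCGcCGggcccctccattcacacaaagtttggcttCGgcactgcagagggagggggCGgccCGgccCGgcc
Kcnj4: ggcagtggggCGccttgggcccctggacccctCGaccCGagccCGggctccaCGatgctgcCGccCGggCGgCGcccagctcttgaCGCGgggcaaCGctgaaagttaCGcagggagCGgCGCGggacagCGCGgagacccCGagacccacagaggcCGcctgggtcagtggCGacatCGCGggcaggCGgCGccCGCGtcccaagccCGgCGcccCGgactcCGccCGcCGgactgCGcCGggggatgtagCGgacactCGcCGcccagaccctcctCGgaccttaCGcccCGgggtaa
Kcnj2: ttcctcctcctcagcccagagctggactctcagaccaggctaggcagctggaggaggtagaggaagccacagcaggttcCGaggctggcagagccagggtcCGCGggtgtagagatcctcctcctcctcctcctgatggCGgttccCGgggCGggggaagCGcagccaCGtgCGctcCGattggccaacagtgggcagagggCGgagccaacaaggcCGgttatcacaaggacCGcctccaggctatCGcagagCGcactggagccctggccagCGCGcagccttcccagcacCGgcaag
The Kcnj10 window held 21 CG, that of Kcnj4 41 CG and that of Kcnj2 18 CG, against a median of 7 CG over all 32851 promoter windows. As many CG or more stood in 24.8%, 3.46% and 29.7% of all windows, respectively. None of these 3 windows held TATAAA on either strand, a motif found in 13.6% of all windows. Thus the genes that were higher in WT5 (Kcnj10, Kcnj4) and the one that was lower (Kcnj2) all had windows with more CG than the median. Promoter windows were matched by symbol for 64 of the 89 channel genes. The richest window of the 11 matched genes with a group mean of at least 0.5 TPM held a median of 18 CG (range 5 to 41), and that of the 46 matched genes below 0.1 TPM in every group held a median of 11.5 CG (range 0 to 49). The ranges overlapped almost entirely. DNA methylation was not measured.

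The cells carried the epithelial markers Krt8, Krt18, Krt19, Cdh1, Epcam and Cldn4, which summed to 1805 to 2102 TPM in polyclonal libraries, 4033 to 4190 TPM in WT5 and 2383 to 3122 TPM in the subclones, where TPM is the transcript abundance per length, scaled to the same total in every library. Of these, Krt8 and Cldn4 were called higher in WT5 than in polyclonal cells (limma, as defined below, differences 1.48 and 2.73 on the log2(TPM + 0.1) scale, adjusted p = 4.80e-09 and 2.54e-10), and Cdh1 differed by −0.57. Of 8 markers of the collecting duct principal cell, 4 had a mean of at least 0.5 TPM in polyclonal cells and 3 in WT5, with summed levels of 29.4 to 31.7 TPM and 5.83 to 6.79 TPM in the libraries of these lines, while the water channel gene Aqp2 was listed at 0 in all 28 libraries. Avpr2 (means of 10.6 and 0.06 TPM), Gata3 (4.08 and 0.04 TPM) and Scnn1g (14.3 and 4.85 TPM) were called lower in WT5 by limma. Scnn1a was lower but not called. Aqp3 (0.21 and 0.69 TPM, not called) and Scnn1b (too low to be tested) had higher means in WT5. In the subclone libraries the sums ran from 3.98 to 19.1 TPM and were highest in subclone 5. Of 6 intercalated cell markers, 1 had a mean of at least 0.5 TPM in polyclonal cells and 0 in WT5, with summed levels of 0.65 to 1.85 TPM and 0.07 to 0.16 TPM. That marker, the proton pump gene Atp6v1b1, fell from 1.32 ± 0.48 to 0.0175 ± 0.035 TPM in WT5 (adjusted p = 2.17e-06), while the factor Foxi1 was at 0 in every library. Slc26a4 of the same list went the other way, with means of 0.015 TPM in polyclonal cells and 0.10 TPM in WT5, too low to be tested. Its highest mean was 0.625 TPM, in subclone 4. The sums of this list were 0.08 to 0.72 TPM in the subclone libraries. Markers of fibroblasts, endothelium and immune cells summed to at most 4.68 TPM per list in any library. Proximal tubule markers, nearly all of it Lrp2, summed to between 1.43 and 10.1 TPM. Thick limb markers, nearly all of it Umod, summed to 0.03 to 0.14 TPM in polyclonal libraries and 3.22 to 3.52 TPM in WT5, with Slc12a1 at 0 in all polyclonal libraries. What part these marker differences have in the channel results was not tested. Polyclonal libraries were short single-end reads and WT5 libraries longer paired-end reads sequenced at another time, so line and sequencing batch cannot be told apart. Between 18681 and 19272 genes had a value above 0 in polyclonal libraries and between 16318 and 16536 in WT5 libraries. As TPM keeps no read number, the depth behind each value is unknown. The sources differ on whether the 4 libraries of a group are biological or technical replicates, so SDs and p-values below measure the spread between these libraries.

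Most potassium channel genes were listed at 0 or at a very low level. Of the 89, 26 were listed at 0 in all 28 libraries, a further 36 stayed below a mean of 0.1 TPM in every group, 13 reached between 0.1 and 0.5 TPM, and 14 reached a mean of at least 0.5 TPM in at least 1 group. The last number is 15.7% of the channel genes, whereas 56.0% of all protein-coding genes reached that level. The inward rectifiers held 5 genes of at least 0.5 TPM among 15, the 2-pore-domain channels 3 of 14, the Kcnab and Kcne subunits 3 of 8, the Kv alpha subunits 2 of 30, the ion-activated channels 1 of 12 and the modulatory Kv alpha subunits 0 of 10. The Kv alpha subunits were the largest family and had 12 genes at 0 throughout. In the modulatory family the highest gene was Kcnf1, a silent subunit of Kv2 channels, at 0.0925 ± 0.017 TPM (SD, n = 4) in WT5.

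**Figure D1:**
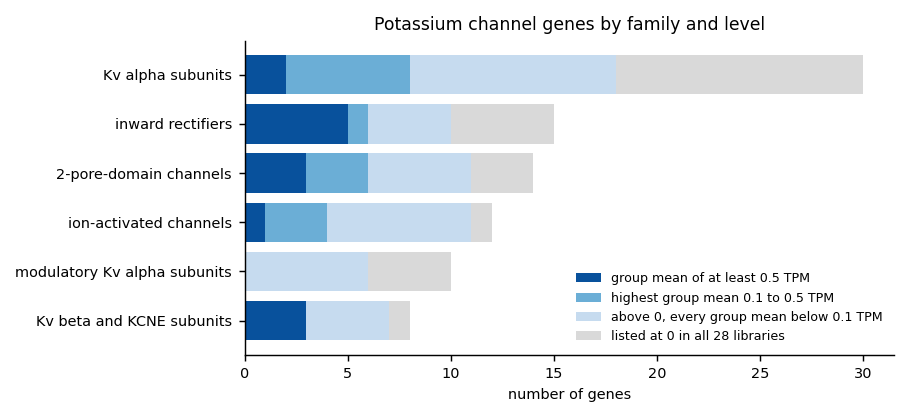
Number of potassium channel genes in each family (y axis) by level (x axis, number of genes), with colours for a group mean of at least 0.5 TPM, a highest group mean between 0.1 and 0.5 TPM, values above 0 with every group mean below 0.1 TPM, and 0 in all 28 libraries. The inward rectifiers hold 5 genes in the darkest class and the Kv alpha subunits hold 12 of the 26 genes at 0.

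One gene made up most of the channel mRNA. Kcnk1 (TWIK1, chr8:125995170-126030685, plus strand), which encodes a weakly conducting leak channel found along the renal tubule, was at 194, 203, 211 and 194 TPM in polyclonal cells and at 243, 244, 254 and 247 TPM in WT5. Its subclone libraries ranged from 180 to 238 TPM. Each WT5 library was above each polyclonal and each subclone library. Summed over the 89 genes, channel mRNA came to 250 ± 10.3 TPM (SD, n = 4) in polyclonal cells, 313 ± 7.55 TPM in WT5 and between 256 and 282 TPM on average in the subclones, and Kcnk1 supplied between 73.2% and 80.4% of the sum in each library. Of the exonic bases of Kcnk1, 8.01% lie opposite the antisense gene Gm45875, and strand use in the counting is not given in the sources used here.

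The next genes in order were an order of magnitude lower. Kcnj16, which encodes the Kir5.1 subunit that pairs with Kcnj10 in the basolateral membrane, had group means between 14.2 TPM (WT5) and 25.0 TPM (subclone 2). Kcnk5 (TASK2), an alkali-sensitive leak channel, had means between 12.1 TPM (polyclonal) and 21.4 TPM (subclone 4). These ranges of Kcnj16 and Kcnk5 overlap, so their order depends on the line. Kcnab3 and Kcnab2, which encode beta subunits of Kv channels, had means of 4.47 to 11.5 TPM and 3.98 to 7.40 TPM. No Kv alpha gene reached a mean of 1 TPM in any group, so both beta subunit genes stood above every Kv alpha gene. Of the apical channels of the collecting duct, both picked out here with their values known, Kcnj1 was listed at 0 in all 28 libraries and Kcnma1 was at most at 0.07 TPM in any library. Kcnj4, Kcnn1, Kcnj13, Kcnk10 and Kcnj2 had highest group means between 1.40 and 4.40 TPM, and Kcnh3, Kcnj10, Kcne2 and Kcnq1 between 0.807 and 0.975 TPM.

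**Figure D2:**
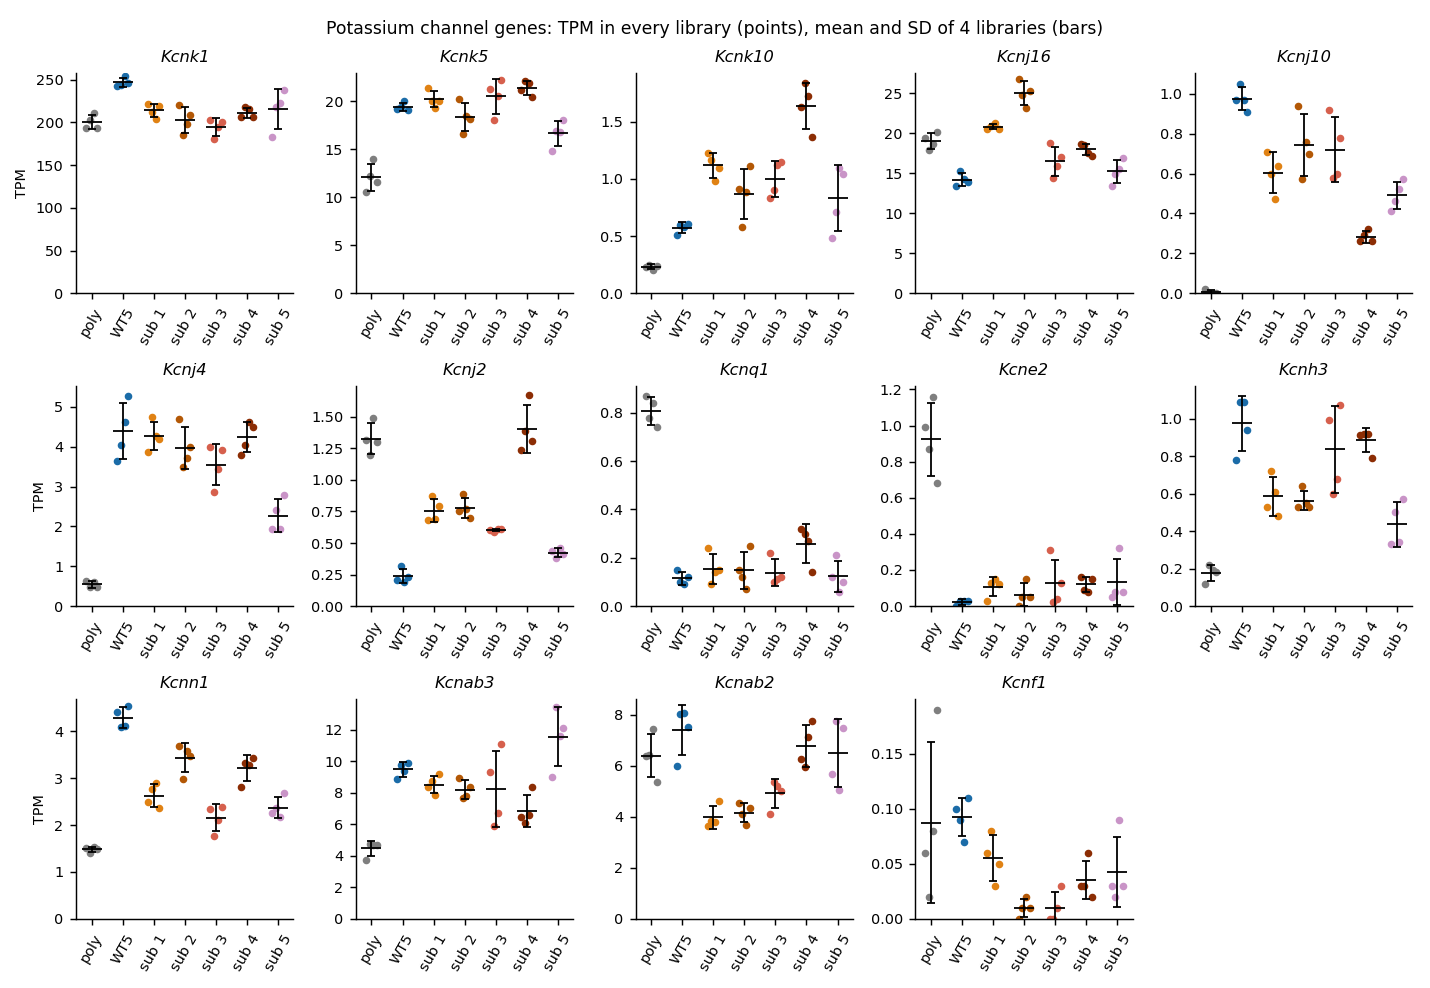
TPM (y axis, linear from 0) of 14 potassium channel genes in the 7 groups (x axis, poly for polyclonal and sub for subclone), with a point for each library and bars for the mean and SD of 4 libraries, cut off at 0. Kcnj10 is at or near 0 in polyclonal libraries only, Kcnq1 and Kcne2 are highest there, and Kcnj2 is lowest in WT5, with means of 1.40 TPM in subclone 4 and 1.33 TPM in polyclonal cells.

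WT5 was compared with polyclonal cells to show how the channel genes of 1 clone differ from those of the parental population. Line and sequencing batch cannot be told apart in this comparison. In WT5, Kcnj10, Kcnj4, Kcnh3, Kcnn1, Kcnab3 and Kcnk10 were higher and Kcne2, Kcnj2 and Kcnq1 were lower. A gene entered the limma test where TPM was at least 0.5 in at least 4 of the 8 libraries, and was called at an adjusted p below 0.01 together with a difference above 1 on the log2(TPM + 0.1) scale. Under these criteria 13 of the 89 genes were tested and 9 were called, against 32.2% of the 14004 genes tested. As genes with a low level in both lines cannot enter, the count depends on the filter: 6 genes passed it in both lines, and 2 of these (Kcnn1, Kcnab3) were called. The share called among all genes that passed in both lines was not computed, so nothing is read from these counts. The median difference of the 13 genes was 0.69 and that of all genes tested 0.19 on this scale. With each library centred on its median, 7 channel genes were called. All 9 called genes had groups that did not overlap, but so had Kcnk5, Kcnk1 and Kcnj16, which were not called. The share of all genes with separate groups was not computed, so separate groups add nothing to the calls here. As these are bulk libraries, fewer cells with a transcript and less of it per cell cannot be told apart.

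Among the inward rectifiers, Kcnj10 (Kir4.1, chr1:172341210-172374085, plus strand) was at 0.02, 0, 0 and 0 TPM in polyclonal cells and at 0.97, 1.05, 0.97 and 0.91 TPM in WT5. All WT5 libraries were above all polyclonal libraries. It rose by 3.36 ± 0.17 (SE) on the log2(TPM + 0.1) scale (limma, adjusted p = 2.85e-08), a size that depends on the pseudocount because polyclonal values are at or near 0 (0.97 with a pseudocount of 1 and 6.22 with 0.01). Kcnj4 (Kir2.3, chr15:79483714-79505241, minus strand), a strong inward rectifier, was at 0.63, 0.48, 0.60 and 0.47 TPM in polyclonal cells and at 3.65, 4.03, 4.62 and 5.28 TPM in WT5. It rose by 2.80 ± 0.15 (adjusted p = 6.28e-08). Kcnj2 (Kir2.1, chr11:111066164-111076821, plus strand), a close relative of Kcnj4, went the other way, from 1.32, 1.2, 1.49 and 1.3 TPM in polyclonal cells to 0.21, 0.32, 0.19 and 0.23 TPM in WT5. It fell by 2.09 on the log2(TPM + 0.1) scale (SE 0.17, adjusted p = 9.49e-07). Thus polyclonal cells had more Kcnj2 than Kcnj4 mRNA per transcript length, and WT5 cells more Kcnj4 than Kcnj2. Kcnj16, the partner of Kcnj10, differed by −0.42 ± 0.06 (adjusted p = 1.09e-04), below the size asked for, and so was not called. Kcnj16 ends 38.2 kb before the start of Kcnj2 on chromosome 11.

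The gene pair Kcnq1 and Kcne2 was low in WT5. Kcnq1 (KvLQT1, chr7:143106362-143427042, plus strand) encodes a Kv channel that Kcne2, a single-pass subunit, keeps open at rest in epithelia such as the stomach and thyroid. Kcnq1 was at 0.87, 0.78, 0.84 and 0.74 TPM in polyclonal cells and at 0.15, 0.10, 0.09 and 0.12 TPM in WT5, and it fell by 2.08 on the log2(TPM + 0.1) scale (SE 0.16, limma adjusted p = 9.19e-07). Kcne2 (chr16:92292389-92298129, plus strand) was at 0.99, 0.87, 1.16 and 0.68 TPM in polyclonal cells and at 0, 0.03, 0.03 and 0.03 TPM in WT5. It fell by 3.05 on that scale (SE 0.21, adjusted p = 2.79e-07). For both genes each polyclonal library was above each WT5 library. Kcnq1 shares 121 exonic bases (2.96%) with its antisense gene Kcnq1ot1, whose mean was 0.075 TPM in polyclonal cells and 0.03 TPM in WT5.

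The remaining called genes were higher in WT5. Kcnh3 (Kv12.2, chr15:99224861-99242817, plus strand), a voltage-gated channel known from forebrain neurons, was at 0.12, 0.22, 0.19 and 0.18 TPM in polyclonal cells and at 0.78, 1.09, 1.09 and 0.94 TPM in WT5. It rose by 1.96 ± 0.18 (limma, adjusted p = 3.58e-06). Kcnn1 (SK1, chr8:70842049-70863258, minus strand), a small-conductance calcium-activated channel, was at 1.51, 1.4, 1.53 and 1.5 TPM in polyclonal cells and at 4.41, 4.08, 4.12 and 4.53 TPM in WT5, and it rose by 1.47 ± 0.10 (adjusted p = 2.15e-07). The SD of Kcnn1 was 0.058 TPM in polyclonal cells and 0.22 TPM in WT5, so the lines lay far apart relative to the spread within them. The 4 neuronal markers summed to 2.95 to 4.51 TPM in polyclonal libraries and 12.0 to 13.5 TPM in WT5, nearly all of it Tubb3. Only Tubb3 was higher in WT5 and only Tubb3 reached 0.5 TPM. Syp was at 0.26 ± 0.13 TPM in polyclonal cells and 0.175 ± 0.068 TPM in WT5, Snap25 was at 0 in both lines, and Rbfox3 at 0.005 and 0 TPM. Their part in the level of Kcnh3 and Kcnn1 was not tested.

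The last pair of calls lay near the threshold of size. Kcnab3 (chr11:69326258-69333042, plus strand) was at 3.76, 4.74, 4.71 and 4.68 TPM in polyclonal cells and at 8.85, 9.75, 9.38 and 9.90 TPM in WT5 and rose by 1.07 ± 0.09 (limma, adjusted p = 2.18e-06). Kcnk10 (TREK2, chr12:98429437-98578310, minus strand), a leak channel opened by membrane stretch and fatty acids, was at 0.23, 0.25, 0.20 and 0.24 TPM in polyclonal cells and at 0.51, 0.60, 0.58 and 0.61 TPM in WT5 and rose by 1.03 ± 0.15 (adjusted p = 1.12e-04). Centred on the median of each library, these differences were 0.85 and 0.81 and were no longer called. Without polyclonal replicate 1 the difference of Kcnab3 was 0.99, and without polyclonal replicate 3 that of Kcnk10 was 0.99, so each call also rested on 1 library. Relative to the median of all genes the other 7 called genes kept their calls.

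The other abundant channel genes were not called. Kcnk5 was higher in WT5 by 0.69 ± 0.08 (limma, adjusted p = 2.13e-05) and Kcnk1 by 0.30 ± 0.04 (adjusted p = 3.30e-05), and both lay below the size asked for. After centring, the difference of Kcnk1 was 0.08 ± 0.03. Kcnab2 was at 5.37 to 7.43 TPM in polyclonal cells and 5.98 to 8.07 TPM in WT5, which overlap, and its difference of 0.20 ± 0.13 (adjusted p = 0.155) became −0.01 after centring. Without the threshold of size, 12 of the 13 channel genes had an adjusted p below 0.01, against 75.2% of all genes tested.

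**Figure D3:**
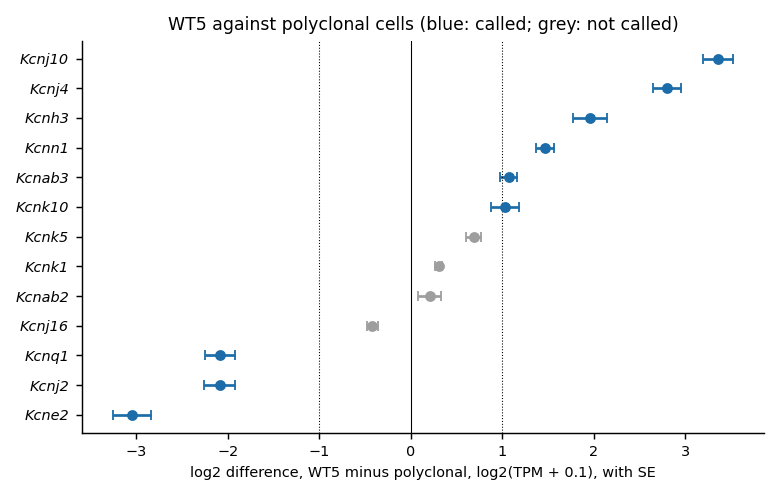
Difference between WT5 and polyclonal cells (x axis, WT5 minus polyclonal on the log2(TPM + 0.1) scale) for the 13 potassium channel genes tested (y axis), with SE bars from limma and dotted lines at the threshold of 1. Blue points are the 9 called genes, from Kcnj10 at 3.36 to Kcne2 at −3.05, and grey points the 4 that were not called.

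The subclones were compared with WT5 to show how the same genes differ between WT5 and clones grown from it. WT5 and the subclones come from separate tables with no normalization between them, and the 5 comparisons share the 4 WT5 libraries. Where all subclones differ from WT5 in the same way, clone and table cannot be told apart. Of the 89 genes, 11 were tested in each of subclones 1 to 4 and 10 in subclone 5. The limma test called 3 channel genes in subclone 4, where 4.68% of all genes tested were called. It called 1 channel gene each in subclones 1, 2, 3 and 5, where 2.97%, 2.7%, 3.51% and 3.43% of all genes were called. These counts also depend on the filter: 8, 10, 10, 9 and 7 channel genes passed it in both lines for subclones 1 to 5, and of these 1 was called, Kcnk10 in subclone 4. Kcnj2 entered each test through the subclone, where it was high, and Kcnj10 in subclone 4 and Kcnh3 in subclone 5 through WT5, so nothing is read from the counts. The medians of the channel genes tested were −0.15, −0.21, −0.24, −0.12 and −0.21 for subclones 1 to 5, and those of all genes −0.04, −0.06, −0.09, −0.07 and −0.11.

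Kcnj2, which was low in WT5, was called higher in subclones 1 to 4, in tests that share the same 4 WT5 libraries. Its 4 libraries read 0.68, 0.87, 0.69 and 0.79 TPM in subclone 1 and 0.75, 0.89, 0.77 and 0.70 TPM in subclone 2. They read 0.60, 0.59, 0.61 and 0.61 TPM in subclone 3, 1.24, 1.39, 1.67 and 1.31 TPM in subclone 4, and 0.44, 0.38, 0.46 and 0.41 TPM in subclone 5, where the gene was too low to be tested. Each subclone library was above the highest WT5 library, at 0.32 TPM. For subclones 1 and 2 the rise over WT5 was 1.35 ± 0.23 and 1.39 ± 0.25 on the log2(TPM + 0.1) scale (limma, adjusted p = 0.00115 and 0.00129). For subclone 3 it was 1.07 ± 0.25 (adjusted p = 0.00797) and for subclone 4 it was 2.16 ± 0.21 (adjusted p = 1.79e-05). The call in subclone 3 was lost whichever of its 8 libraries was left out, with an adjusted p of 0.0106 without WT5 replicate 2 and 0.0234 without WT5 replicate 3 at the extremes.

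Subclone 4 differed from WT5 at a pair of further genes. Kcnk10 was at 1.63, 1.84, 1.73 and 1.37 TPM in subclone 4, above all WT5 libraries (0.51 to 0.61 TPM), and rose by 1.36 ± 0.16 (limma, adjusted p = 5.70e-05). Kcnj10 was at 0.26, 0.29, 0.32 and 0.26 TPM, below all WT5 libraries (0.91 to 1.05 TPM), and fell by 1.49 on the log2(TPM + 0.1) scale (SE 0.19, adjusted p = 1.16e-04). In the other subclones Kcnk10 differed from WT5 by 0.41 to 0.85 and Kcnj10 by −0.87 to −0.37, and none of these were called. Kcnj16, the partner of Kcnj10, was at 17.2 to 18.7 TPM in subclone 4 and 13.3 to 15.2 TPM in WT5, a difference of 0.34 ± 0.06 (adjusted p = 4.79e-04).

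In subclone 5 the only call was Kcnh3, which was at 0.33, 0.50, 0.34 and 0.57 TPM against 0.78 to 1.09 TPM in WT5. It fell by 1.02 (SE 0.24, limma adjusted p = 0.00755). This call was lost without any 1 of 7 of the 8 libraries (adjusted p from 0.0111 without subclone 5 replicate 2 to 0.0264 without WT5 replicate 3), and after centring (−0.92). Without subclone 5 replicate 4, Kcnh3 and Kcnj4 were both called. Kcnj4 was at 1.94, 2.41, 1.94 and 2.78 TPM in subclone 5 and at 3.65 to 5.28 TPM in WT5, a difference of −0.93 ± 0.16 (adjusted p = 0.0014) that lay just below the size asked for.

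Genes that were not called in any subclone still gave adjusted p-values below 0.01 against WT5. Kcnn1 differed from WT5 by −0.69, −0.31, −0.97, −0.41 and −0.83 in subclones 1 to 5, with an adjusted p below 0.01 in 4 of the 5. It was at 1.77 to 3.69 TPM in the subclone libraries and at 4.08 to 4.53 TPM in WT5, so no subclone library reached WT5. Without subclone 3 replicate 1 or 4, Kcnn1 was called in that subclone. Kcnk1 differed by −0.20, −0.28, −0.34, −0.22 and −0.20. Kcnab2 differed by −0.87, −0.81, −0.57, −0.12 and −0.20, where the differences of subclones 4 and 5 came from groups that overlapped with WT5. Kcnj16 differed by 0.55, 0.81, 0.21, 0.34 and 0.10, and was highest in subclone 2 with 26.8, 24.8, 23.1 and 25.3 TPM. Kcnk5 lay between −0.22 and 0.14 and had no adjusted p below 0.01, and Kcnab3 lay between −0.47 and 0.27.

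**Figure D4:**
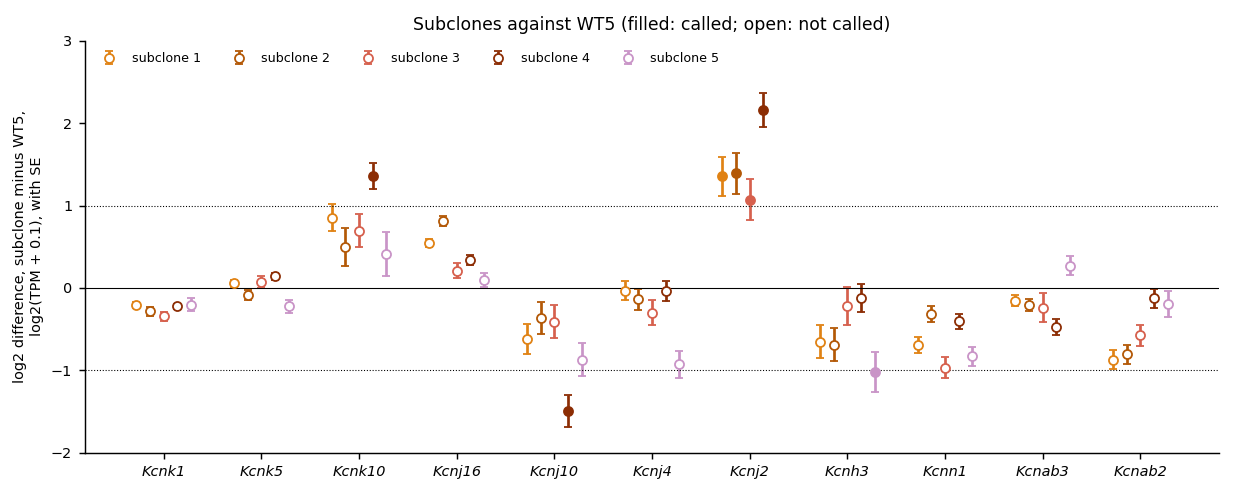
Difference of each subclone from WT5 (y axis, subclone minus WT5 on the log2(TPM + 0.1) scale) for the 11 potassium channel genes tested (x axis), with SE bars from limma and dotted lines at 1 and −1. Filled points are called, namely Kcnj2 in subclones 1 to 4, Kcnk10 and Kcnj10 in subclone 4 and Kcnh3 in subclone 5.

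Comparing the 5 subclones with one another needs no WT5 library and stays within 1 table. The moderated F test of limma called 2 of the 13 channel genes tested, Kcnj2 and Kcnj10, against 4.91% of 13462 genes. Of the 7 that passed the filter in every subclone 0 were called by limma, while Kcnj2 and Kcnj10 entered only through the subclones where they were high, so nothing is read from this count. The means of Kcnj2 were 0.757 ± 0.090, 0.777 ± 0.081, 0.603 ± 0.010, 1.40 ± 0.19 and 0.422 ± 0.035 TPM (SD, n = 4) in subclones 1 to 5, a range of 1.52 on the log2(TPM + 0.1) scale (adjusted p = 3.31e-06). All libraries of subclone 4 were above, and all libraries of subclone 5 below, those of every other subclone. The means of subclones 1 and 2 lay within 1 SD of each other. The means of Kcnj10 were 0.605 ± 0.10, 0.743 ± 0.15, 0.720 ± 0.16, 0.282 ± 0.029 and 0.490 ± 0.070 TPM, a range of 1.12 (adjusted p = 0.00103). For Kcnj10 the libraries of subclone 4 (0.26 to 0.32 TPM) did not overlap with those of any other subclone, which together spanned 0.41 to 0.94 TPM. Hence subclone 4 was highest for Kcnj2 and lowest for Kcnj10.

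Of the other channel genes, Kcnj16, Kcnj4, Kcnab2, Kcnn1 and Kcnk5 had an adjusted p below 0.01 among the subclones with a range of at most 1, namely 0.72, 0.90, 0.75, 0.66 and 0.36. The same adjusted p without a size was reached by 19.1% of all genes tested. Kcnj16 was highest in subclone 2 (25.0 ± 1.5 TPM) and lowest in subclone 5 (15.2 ± 1.4 TPM), and Kcnj4 was lowest in subclone 5 (2.27 ± 0.41 TPM) and between 3.55 and 4.27 TPM elsewhere. Kcnk1 had a range of 0.14 (adjusted p = 0.371), so no difference of the main channel gene was detectable among the subclones.

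Below the filter, 3 Kv alpha genes chosen after their values had been seen showed separate groups in WT5 and polyclonal cells. The share of all genes with separate groups was not computed, so nothing is read from the separation. Kcna7 (Kv1.7) was at 0.03 to 0.06 TPM in polyclonal cells, 0.35 to 0.52 TPM in WT5 and 0.07 to 0.30 TPM in the subclones, and Kcnh2 (hERG) was at 0 to 0.13 TPM in polyclonal cells and 0.29 to 0.46 TPM in WT5. With no filter, Kcna7 differed by 1.89 ± 0.18 and Kcnh2 by 1.86 ± 0.30 between WT5 and polyclonal cells, and both were called, against 24.7% of the 23738 genes then tested. With no filter, Kcna7 was also called lower than WT5 in subclones 1, 3, 4 and 5, by 1.19, 1.43, 1.13 and 1.08. The share of all genes called without a filter was 2.26%, 2.07%, 2.57%, 3.60% and 2.39% in subclones 1 to 5. Kcnc2 (Kv3.2) was listed at 0 in all polyclonal libraries and was above 0 in all WT5 (0.04 to 0.10 TPM) and all subclone libraries (0.06 to 0.25 TPM). With no filter it was not called between WT5 and polyclonal cells. Its WT5 values lie near 0.01 TPM, the smallest value above 0, and line and sequencing batch cannot be told apart.

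Kcnj13 (Kir7.1, chr1:87386363-87394729, minus strand), an inward rectifier of ion-transporting epithelia, also chosen after its values had been seen, had values that did not repeat within a line. It was at 0.37, 0.66, 0.33 and 0.11 TPM in polyclonal cells and at 0, 0.04, 0 and 6.41 TPM in WT5. In subclones 2, 4 and 5 it was at 0, 0, 3.69 and 0 TPM, at 10.0, 4.29, 0 and 0.03 TPM and at 0, 0, 0.04 and 7.67 TPM, whereas subclones 1 and 3 stayed at or below 0.11 TPM. Thus 5 of the 24 WT5 and subclone libraries lay between 3.69 and 10.0 TPM, and the other 19 at or below 0.11 TPM, with 12 listed at 0. The gene lies wholly within Gigyf2, a widely expressed gene of translation control on the opposite strand, and 49.1% of its exonic bases are also exonic in Gigyf2. Gigyf2 was at 73.7 to 99.3 TPM in the 5 libraries with high Kcnj13 and at 72.4 to 103 TPM in the other WT5 and subclone libraries. How much of the Kcnj13 value comes from reads of Gigyf2 was not tested, so the level of Kcnj13 in these cells is uncertain. Among the subclones its range was 2.73 (limma F test, adjusted p = 0.556), within the spread of single libraries.

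**Figure D5:**
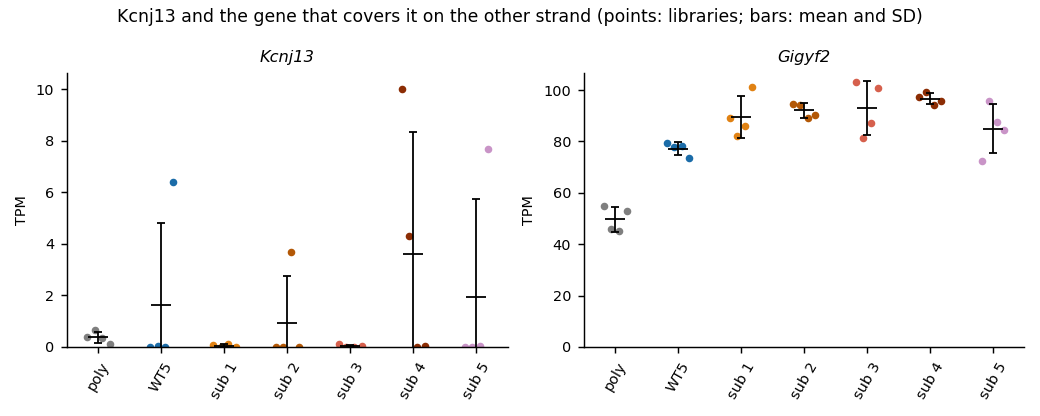
TPM (y axes, linear from 0) of Kcnj13 and of Gigyf2, which covers it on the other strand, in the 7 groups (x axis), with a point for each library and bars for the mean and SD of 4 libraries, cut off at 0. Single libraries of WT5 and of subclones 2, 4 and 5 lie between 3.69 and 10.0 TPM of Kcnj13, while Gigyf2 has no such separate libraries.

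Genes that act with these channels were taken from lists by function. Of 14 partner proteins outside the Kcn symbol rule (such as Kcnip, Dpp and sulfonylurea receptor genes), 1 was tested between WT5 and polyclonal cells, Amigo1, a Kv2 partner, at 14.4 and 16.6 TPM on average in polyclonal cells and WT5, and it was not called (difference 0.20 ± 0.09, limma adjusted p = 0.0703). Of 24 potassium pump and cotransporter genes, 9 were tested and 3 were called, a share near the 32.2% of all genes. Fxyd5, a regulator of the sodium pump, rose from 0.0975 ± 0.025 to 4.59 ± 1.7 TPM (difference 4.51 ± 0.25, limma adjusted p = 7.20e-08), Atp1b2 rose by 1.07 ± 0.27 (adjusted p = 0.00361), and Atp1b1, the main beta subunit of the pump, fell by 1.14 (SE 0.03, adjusted p = 7.23e-10). Centred on library medians, and likewise with the unequal-variance test, Atp1b2 lost its call and Fxyd5 and Atp1b1 kept theirs. In subclones 1 and 5 Fxyd5 was called lower than WT5 (differences −1.77 and −1.60, adjusted p = 0.00212 and 8.40e-04), but in neither with the unequal-variance test, and no other pump or cotransporter gene was called in a subclone. Of 13 related cation channel genes, 5 were tested. Between WT5 and polyclonal cells limma called 0 of them, as did the unequal-variance test, and 2 had an unadjusted p below 0.05. These 2, Tmem38a and Tmem38b, channels of intracellular membranes, differed by −0.82 each (adjusted p = 7.68e-07 and 2.7e-04), and both were called lower in WT5 after centring.

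The last list held kinases and other regulators of renal potassium channels. Of these 16 genes, 12 were tested between WT5 and polyclonal cells. Limma called 5 higher in WT5 and 0 lower, against 16.8% of all genes called higher and 15.4% called lower. Stk39 and Nr3c2, at means of 0.23 and 0.128 TPM in polyclonal cells, entered the test only through WT5, where they were high. So nothing is read from this count. After centring 4 rose, without Hsd11b2. The caveolar protein gene Cav1 rose from 29.4 ± 0.84 to 209 ± 14 TPM (difference 2.83 ± 0.05, limma adjusted p = 2.09e-11). The mineralocorticoid receptor gene Nr3c2, through which aldosterone acts, rose from 0.128 ± 0.075 to 1.47 ± 0.13 TPM (difference 2.85, adjusted p = 2.41e-06), and Sgk1, a kinase that aldosterone induces, rose by 1.71 (adjusted p = 2.75e-06). Stk39, the SPAK kinase downstream of WNK kinases, rose by 2.12 (adjusted p = 1.51e-06), and Hsd11b2, which shields the receptor from glucocorticoids, rose by 1.11 (adjusted p = 1.75e-06). The median of the 12 genes was 0.63, against 0.19 over all genes. As it includes Stk39 and Nr3c2, it depends on the filter too, and nothing is read from it.

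Among the subclones 3 of the 13 regulators tested were called, Stk39, Sgk1 and Cav1, against 4.91% of all genes tested. Stk39 had means of 3.21, 1.17, 4.83, 3.96 and 5.03 TPM in subclones 1 to 5, a range of 2.02 (limma F test, adjusted p = 4.97e-10). Its value in subclone 2 differed from WT5 by −0.19 (adjusted p = 0.403), whereas it rose by 1.19 to 1.83 in the other subclones. Sgk1 had a range of 1.17 (adjusted p = 0.00114), with a mean of 42.4 TPM in subclone 1 and 18.4 TPM in subclone 3. Against WT5, at 63.6 ± 9.1 TPM, Sgk1 was called lower in subclones 2 to 5 (differences −1.29, −1.79, −1.07 and −1.69, adjusted p at most 2.61e-04), a call lost in subclone 2 with the unequal-variance test and in subclone 4 after centring. Cav1 had a range of 1.08 (adjusted p = 3.25e-08), with the lowest mean, 61.5 ± 2.8 TPM, in subclone 4, the subclone that was highest for Kcnj2 and lowest for Kcnj10. After centring the same 3 genes were called, and with the unequal-variance test Sgk1 was not. Nr3c2 was higher than WT5 in all subclones (0.98, 0.61, 1.13, 1.00 and 0.925 in subclones 1 to 5, limma adjusted p at most 0.00245). It was called in subclones 3 and 4, and after centring also in subclones 1 and 5. Cav1 was lower in all subclones (−0.74, −0.82, −1.07, −1.76 and −0.68). It was called in subclones 3 and 4, but not in subclone 3 after centring. As all subclones went the same way for both genes, clone and table cannot be told apart. Sgk2 was called higher than WT5 in subclone 4 (difference 1.02, adjusted p = 0.005), though not with the unequal-variance test, and was not tested in the other subclones. It entered that test only through subclone 4. Its means were 0.63, 0.55, 0.34, 0.65 and 0.43 TPM in subclones 1 to 5 and 0.27 TPM in WT5, so subclone 1 was at a similar level.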

How the data were processed

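RNA of mIMCD-3 cells was sequenced in 28 libraries (7 groups of 4). The 2 tables deposited by the authors hold TPM with 2 decimals, made with STAR 2.7.3a on GRCm38 with an Ensembl annotation and with RSEM 1.3.1 after adapter and low-quality reads had been removed. Per the labels CASAVA 1.8 was used too. Depth and strand use are not given in the sources used here. The smallest value above 0 is 0.01 TPM.

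Genes were matched by identifier to the GENCODE annotation of GRCm38, and 45143 of 45706 rows were found. The 89 channel genes, the gene lists and the tests were chosen with earlier results of these data known. Groups were compared with limma 3.58.1 in R 4.3.3 (two-sided, prior variance with a trend) on log2(TPM + 0.1), with only the libraries compared in the fit, for genes with TPM of at least 0.5 in at least 4 of these libraries, and with Benjamini-Hochberg adjustment over all genes tested. A gene was called at an adjusted p below 0.01 and a difference above 1. The 5 subclones were compared by the moderated F test with a range of means above 1. The z-scores and the unequal-variance test of the study methods were run as alternatives, because z-scores without a pseudocount leave out genes listed at 0 in any library. On simulated data with 200 changed genes, between 96% and 100% of the changed genes were recovered with at most 3 false calls per comparison. The changed genes were drawn from those with a mean above about 2 TPM, with differences of 1.5 or 2 on the log2 scale and normal noise. Recovery at lower levels, where most called channel genes lie, and of smaller differences was not tested.

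Genes named with values were those called in any of the 7 comparisons, those with a mean of at least 5 TPM in any group, and the highest gene of a family without either, 14 in all. Others were chosen after their values had been seen and are so marked. Replicate numbers were checked for pairing, and for no 2 groups compared were all same-numbered libraries correlated above 0.1. Overlaps of exons were computed from the annotation, and promoter windows came from RefSeq. Results that need withheld items are not reported here.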

Additional observations from a re-analysis of the deposited data

Results flagged for a closer look

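Dixon's ratio was computed in 105 groups of 4 libraries, for the 14 channel genes named by rule and for Kcnj13, and 10 libraries stood apart from the other 3 of their group (ratio above Dixon's critical value for 4 samples). Chance gives such a library in about 1 of 20 groups. Kcnab3 was at 3.76 TPM in polyclonal replicate 1 and at 4.68 to 4.74 TPM in the other 3, and its difference between WT5 and polyclonal cells was 0.99 without that library and 1.07 with it. Kcnh3 was at 0.79 TPM in subclone 4 replicate 4 and at 0.91 to 0.92 TPM in the others. Kcnj13 was at 6.41 TPM in WT5 replicate 4, at 3.69 TPM in subclone 2 replicate 3 and at 7.67 TPM in subclone 5 replicate 4, against at most 0.04 TPM in the other libraries of these groups. The other 5 lay at low values. Kcnj10 was at 0.02 TPM in polyclonal replicate 1 and at 0 in the others. Kcne2 was at 0 in WT5 replicate 1 and at 0.03 TPM in the others, and at 0.32 TPM in subclone 5 replicate 3 against 0.05 to 0.08 TPM. Kcnq1 was at 0.22 TPM in subclone 3 replicate 1 against 0.10 to 0.12 TPM, and Kcnf1 at 0.09 TPM in subclone 5 replicate 3 against 0.02 to 0.03 TPM. The share of reads that Kcnj13 and Gigyf2 have in common was not tested.

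Among the 5 subclones the moderated F test of limma, with a range above 1, called 2 of 13 channel genes, against 4.91% of 13462 genes. Both entered the test only through subclones where they were high, so nothing is read from this count. Without the size, 7 channel genes had an adjusted p below 0.01, against 19.1% of all genes. Kcnj2 had a range of 1.52 among the 5 subclones and Kcnj10 a range of 1.12 on the log2(TPM + 0.1) scale.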

How the results depend on the processing

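The number of called channel genes depended on the pseudocount, the filter, the scaling and the threshold of size. Most of the called genes lay near or below 1 TPM. With z-scores the threshold of 1 stands for 1 SD of log2(TPM) over the genes of a library, which is another size. Between WT5 and polyclonal cells 9 genes were called, and this became 2 with a pseudocount of 1 (Kcnj4, Kcnn1), 4 with a filter of TPM 1, and 1 with the z-scores of the study methods (Kcnq1). Over all genes, 4513 of 14004 tested were called, and this became 3607 of 14004, 3873 of 12981 and 748 of 13723 in these settings, in the same order. For subclones 1 to 5 the counts of 1, 1, 1, 3 and 1 became 0 in each with a pseudocount of 1 or with z-scores. Over all genes the pseudocount of 1 left 176, 183, 250, 310 and 245 calls among 12844 to 12957 genes tested. The z-scores left 21, 20, 24, 28 and 25 calls among 13860. With a filter of TPM 1 the channel counts became 0 in subclones 1, 2, 3 and 5, against 310, 291, 387 and 374 calls among 12070 to 12127 genes. With no filter they became 3, 2, 3 and 5 in subclones 1 to 4, against 2.26%, 2.07%, 2.57% and 3.60% of all genes. In subclone 5 the single call was then Kcna7 in place of Kcnh3. Without a threshold of size the channel counts were 6, 4, 4, 7 and 4, against 4164, 3743, 2808, 5690 and 2878 calls among 12844 to 12957 genes tested. In subclones 3 and 5 the count became 0 with a pseudocount of 0.01 and with the unequal-variance test, and in subclone 5 also with median-centred libraries. The calls over all genes were then 458 and 436 with that pseudocount, 235 and 202 with that test, and 440 after centring in subclone 5. Among the subclones the 2 calls became 0 with a pseudocount of 1 or z-scores, 1 with a filter of TPM 1 and 7 without a threshold of size. Over all genes the 661 calls became 340, 89, 554 and 2571 in these settings, in the same order. The sign of a gene changed in 1 case: Kcnab2 between WT5 and polyclonal cells was −0.015 with centred libraries and −0.007 with z-scores. The cause was not tested.

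With each library left out in turn, counts ranged from 8 to 9 between WT5 and polyclonal cells, stayed at 1, 1 and 3 in subclones 1, 2 and 4, and ranged from 0 to 1 in subclone 3, from 0 to 2 in subclone 5 and from 2 to 3 among the subclones. Of 24 pairs of libraries with the same replicate number in the 6 comparisons of 2 groups, 0 correlated above 0.1 (−0.061 to 0.068), and 6 of 24 libraries correlated best with their own number. Between subclones 5 of 40 such pairs did (−0.175 to 0.270), 12 of 40 correlated best with their own number, and for 0 of 10 pairs of subclones were all 4 correlations above 0.1. With the replicate number as a block the count became 0 in subclone 3 and 0 in subclone 5 and changed in no other comparison.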
